A study of Homo sapiens with 9 samples.

Results

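The genes described here encode protein subunits of the spliceosome, the machine that removes introns from pre-mRNA, together with scaffold proteins of nuclear speckles. They number 50 of the 58425 annotated genes to which the deposited transcripts could be assigned. They were chosen by name, from knowledge of the complexes, in 10 role groups, with earlier results of these data known. The list holds 7 Sm core proteins, 3 U1 snRNP proteins, 11 U2 snRNP proteins, 2 proteins that recognise the 3′ end of the intron, 2 proteins of the minor U11/U12 snRNP, 10 proteins of the U4/U6.U5 tri-snRNP, 2 B complex proteins, 6 proteins of the Prp19 complex and its associates, 4 DEAH-box helicases and 3 speckle proteins. Every one of the 50 was found in the annotation, and all 50 passed the filter on low counts.

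The samples were 9 libraries of nuclear RNA from U2OS, an established human osteosarcoma cell line, with 3 libraries in each of 3 groups. Cells were transfected for 48 hours with an siRNA at 15 nM, using the reagent RNAiMAX. The siRNA was directed against dyskerin in the siDyskerin group, against GAR1 in the siGAR1 group, and was a control siRNA in the siControl group. The paper lists the control siRNA from a different supplier than those against dyskerin and GAR1. Each target has a single siRNA label here, so effects of the siRNA itself cannot be told apart from loss of its target. All groups share the transfection and the nuclear fractionation, no untransfected sample was analysed here, and all libraries come from 1 cell line. Dyskerin, the product of DKC1, is the pseudouridine synthase of the H/ACA ribonucleoprotein complex, and GAR1 is another core protein of that complex. The study asked what losing either protein does to nuclear RNA, in cells where dyskerin had been seen inside splicing speckles.

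Spliceosomal snRNPs are particles of a small nuclear RNA and proteins. A ring of Sm proteins surrounds the RNA of the U1, U2, U4 and U5 particles, and further proteins are specific to each particle. The U1 snRNP recognises the 5′ splice site and the U2 snRNP the branch point, the U4/U6.U5 tri-snRNP then joins, and helicases of the DEAH family remodel and disassemble the spliceosome. The snRNAs carry many pseudouridines, which H/ACA particles of the Cajal bodies introduce. Nuclear speckles are bodies rich in splicing factors, built on the large repetitive proteins SON and SRRM2.

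Summed over transcripts, the estimated counts of a library came to between 48838756 and 90698675. A read is counted in every transcript of a gene that it is compatible with, so these sums exceed the number of fragments. The targeted genes fell in the libraries labelled for them: DKC1 averaged 3099 ± 24.1 normalized reads in siDyskerin, 24555 ± 1754 in siGAR1 and 21477 ± 1076 in siControl, and GAR1 averaged 714 ± 3.94 in siDyskerin, 96.9 ± 15.9 in siGAR1 and 619 ± 39.5 in siControl (SD, n = 3 each). DKC1 in siDyskerin was thus at 14.4% of siControl, and GAR1 in siGAR1 at 15.7%. Of the 8 osteosarcoma and mesenchymal markers examined, VIM, SPARC, COL1A1, RUNX2 and ALPL were present, while SP7, BGLAP and COL1A2 stayed under 20 normalized reads in every library, and the blood cell marker CD3E was at 0 throughout. The summed level of 5 epithelial markers, nearly all of it from KRT8 and KRT18, was 78049 to 78908 normalized reads in siDyskerin, 64724 to 77417 in siGAR1 and 51958 to 59694 in siControl, so that it moved with both knockdowns. Mitochondrially encoded genes held 0.0871% to 0.1004% of gene reads in siDyskerin, 0.107% to 0.127% in siGAR1 and 0.102% to 0.115% in siControl. The part of these shifts in the results below was not tested. Replicate 3 of siGAR1 lay farthest from its group, with an SD of 0.147 of its log2 deviations from the group mean across 12551 genes. The other 8 libraries had 0.103 to 0.137, the highest of them being siControl replicate 1.

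Few members differed between the groups. A member is said to have passed where its Benjamini-Hochberg adjusted p was under 0.01 over the 18444 genes tested with edgeR's quasi-likelihood test, and log2 fold changes are given ± their standard error (SE). The SE of the members lay between 0.06 and 0.15. With siDyskerin against siControl 1 member passed, SON, which was lower. That is 1 of 50, where 3.32% of all genes tested were lower and 3.08% higher. With siGAR1 against siControl 2 members passed, SNRPB2 and MFAP1, both lower, where 1.79% of all genes were lower and 1.63% higher. Between the knockdowns 6 members passed: SNRPB2 and MFAP1 were higher in siDyskerin than in siGAR1, where 2.61% of all genes were, and SON, SRRM1, PRPF4 and PRPF3 were lower, where 2.78% of all genes were. Without siGAR1 replicate 3, which lay farthest from its group, 2 members passed in siDyskerin against siControl (SON and SRRM1, both lower). In siGAR1 against siControl 4 then passed (SNRPB2 and MFAP1 lower, PRPF3 and SF3B6 higher), and between the knockdowns the same 6. The share of all genes that passed was not counted for this fit. The 3 comparisons share their libraries and are not independent of each other. Where groups are said below not to overlap, many other genes did the same. All 3 siDyskerin libraries lay above all 3 of siControl in 2942 of the 18444 genes tested, and below in 2855. For siGAR1 against siControl these numbers were 2505 and 2602, and for siDyskerin against siGAR1 2791 and 2700.

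The upstream sequences of the 3 members that passed against siControl are shown because these genes carry the results. They are the 250 bases before the start site in RefSeq (GRCh38.p14), read 5′ to 3′ on the gene's own strand, and capitals mark matches to any of the motifs listed after them. The window of SNRPB2 lies at chr20:16729776-16730025 on the plus strand, and the last 65 bases of this window are inside the gene as GENCODE draws it. That of MFAP1 lies at chr15:43824691-43824940 on the minus strand, and that of SON at chr21:33542788-33543037 on the plus strand.
SNRPB2: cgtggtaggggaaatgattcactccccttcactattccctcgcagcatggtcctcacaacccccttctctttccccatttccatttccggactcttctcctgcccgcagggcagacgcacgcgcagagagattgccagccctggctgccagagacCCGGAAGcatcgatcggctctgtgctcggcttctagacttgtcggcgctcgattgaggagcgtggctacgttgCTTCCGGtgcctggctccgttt
MFAP1: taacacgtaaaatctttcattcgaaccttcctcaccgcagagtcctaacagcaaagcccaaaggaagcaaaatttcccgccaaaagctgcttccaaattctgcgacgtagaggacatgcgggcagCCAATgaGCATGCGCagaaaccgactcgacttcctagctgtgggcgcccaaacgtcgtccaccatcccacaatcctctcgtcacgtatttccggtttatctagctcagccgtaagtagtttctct
SON: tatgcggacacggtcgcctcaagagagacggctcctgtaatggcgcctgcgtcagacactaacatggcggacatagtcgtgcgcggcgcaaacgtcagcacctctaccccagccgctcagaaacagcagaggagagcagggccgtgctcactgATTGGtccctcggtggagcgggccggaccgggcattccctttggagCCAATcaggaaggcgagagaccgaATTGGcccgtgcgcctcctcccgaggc
The motifs searched, on both strands, were the TATA box (TATAAA), the CCAAT box (CCAAT), the GC box (GGGCGG), a motif of ETS factors (CCGGAAG), the E-box (CACGTG), a motif of NRF1 (GCATGCGC) and the element TCGCGAGA. In SNRPB2 the window held 2 matches to the ETS motif and no other match. MFAP1 had 1 CCAAT box and 1 NRF1 motif, and SON had 3 CCAAT boxes. The table of promoters held 46 of the 50 members, all but PRPF3, SF3B3, SNRNP35 and SNRPD1. The ETS motif was in 23 of the 46 windows, against 8.82% of all 27305 windows and 15.0% of the 12081 windows of genes tested here. The CCAAT box was in 22 of the 46, 47.8%, against 34.9% of the windows of genes tested, and the GC box in 27, 58.7%, against 64.7%. Only 2 members had a TATA box. These are matches of letters, not sites of binding.

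SNRPB2 encodes the U2 snRNP protein B″, which binds a stem-loop of the U2 snRNA together with SNRPA1. It had 3451, 3900 and 3704 normalized reads in siDyskerin and 2055, 1954 and 1991 in siGAR1, against 3697, 3939 and 3729 in siControl. The 3 siGAR1 libraries lay close together and below all 6 others, while siDyskerin and siControl overlapped. SNRPB2 in siGAR1 was thus at 52.8% of siControl, a log2 fold change of -0.92 ± 0.07 with an adjusted p of 5.5e-06, and siDyskerin was at 97.3% (-0.04 ± 0.07, adjusted p = 0.78). Directly compared, siDyskerin exceeded siGAR1 by 0.88 ± 0.07 on the log2 scale, with an adjusted p of 3.5e-06. None of the other 10 U2 snRNP proteins of the list passed in that comparison. SNRPA1, the partner of SNRPB2, differed by 0.13 ± 0.09 in siGAR1 against siControl (adjusted p = 0.37).

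**Figure D1:**
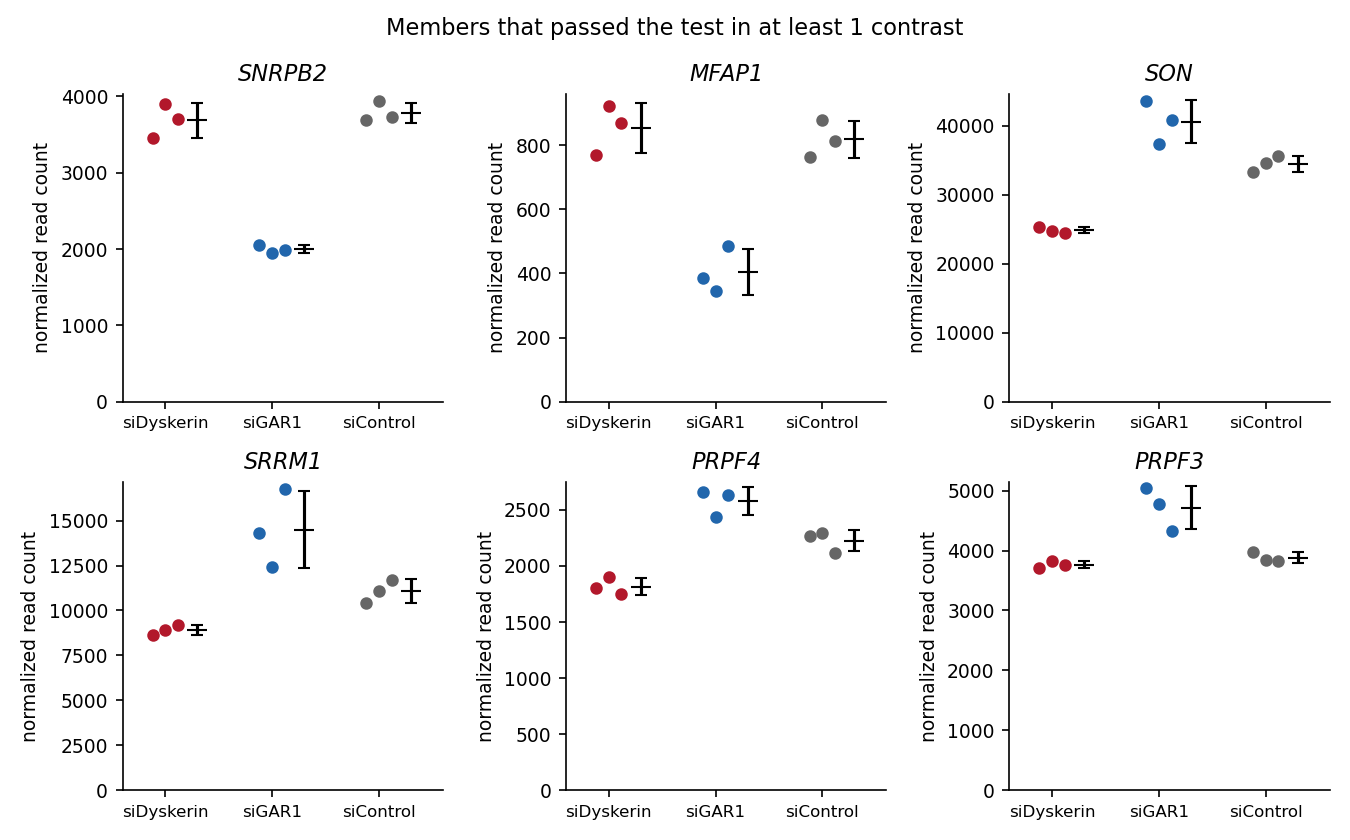
Normalized read counts (vertical axes, from 0) of the 6 members that passed in at least 1 comparison, with 1 point per library and, beside the points, the mean and SD of each group (n = 3). SNRPB2 and MFAP1 are low only in the siGAR1 libraries, whereas SON, SRRM1 and PRPF4 lie lowest in the siDyskerin libraries and PRPF3 lies highest in the siGAR1 libraries.

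MFAP1 encodes a protein of the spliceosomal B complex, where PRPF38A is also found. It had 770, 924 and 868 normalized reads in siDyskerin and 386, 344 and 484 in siGAR1, against 764, 880 and 813 in siControl. All 3 siGAR1 libraries lay below the other 6. The mean of siGAR1 was 49.5% of that of siControl, with a log2 fold change of -1.02 ± 0.12 and an adjusted p of 2.0e-04. MFAP1 was the only member past a 2-fold change in that comparison, as were 0.0976% of all genes tested in the lower direction. In siDyskerin it stood at 0.06 ± 0.12 against siControl (adjusted p = 0.81) and at 1.08 ± 0.12 against siGAR1 (adjusted p = 8.8e-05), where 0.201% of all genes were more than 2-fold higher. The gene passed whichever single library was left out, with adjusted p values of at most 0.0018 in siGAR1 against siControl and 8.0e-04 against siDyskerin, but its change fell under 2-fold in some of these fits: the log2 fold change in siGAR1 was -0.97 without siControl replicate 2, -0.996 without siGAR1 replicate 1 and -0.92 without siGAR1 replicate 2, and against siDyskerin it was 0.98 without siGAR1 replicate 2. Its fellow B complex protein PRPF38A differed from siControl by -0.02 ± 0.07 in siDyskerin and 0.06 ± 0.07 in siGAR1, and passed in no comparison.

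The decrease of both genes in siGAR1 was seen in each of their annotated transcripts. For SNRPB2 the log2 ratio of siGAR1 to siControl was -0.93 and -0.92 in the 2 protein-coding transcripts and -0.90 in the transcript with no defined coding sequence. For MFAP1 it was -0.98 in the protein-coding transcript MFAP1-201, with 347 ± 61.3 normalized reads in siGAR1 and 685 ± 43.1 in siControl, and -1.20 in the retained-intron transcript MFAP1-202, with 58.4 ± 11.3 in siGAR1 and 134 ± 15.7 in siControl. A read is counted in every transcript it is compatible with, so these transcripts share reads and are not separate measurements. The pseudogene of MFAP1 held 0.256% as many reads as the gene, and that of SNRPB2 none.

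The nuclear speckle proteins SON, SRRM1 and SRRM2 had the largest median difference between the knockdowns of the 10 role groups, -0.70 in siDyskerin against siGAR1. SON is a scaffold of speckles and is needed for splicing of many introns with weak splice sites. It had 25272, 24801 and 24433 normalized reads in siDyskerin and 43574, 37332 and 40781 in siGAR1, against 33206, 34544 and 35606 in siControl. The 3 groups did not overlap, with siDyskerin lowest and siGAR1 highest. In siDyskerin SON was at 72.1% of siControl, a log2 fold change of -0.47 ± 0.06 with an adjusted p of 2.0e-04. In siGAR1 it was at 118% of siControl, with a log2 fold change of 0.24 ± 0.06 that did not pass (adjusted p = 0.031), though it did with DESeq2 (adjusted p = 0.0071). The difference of siDyskerin from siGAR1 was -0.71 ± 0.06, with an adjusted p of 8.9e-06.

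SRRM1, a serine- and arginine-rich protein of speckles that bridges splicing factors bound to exons and takes part in mRNA processing, had the same order. Its libraries held 8649, 8938 and 9211 normalized reads in siDyskerin and 14311, 12442 and 16745 in siGAR1, against 10397, 11092 and 11719 in siControl. The groups again did not overlap, and siGAR1 replicate 3 was the highest library. Neither knockdown passed against siControl, at -0.31 ± 0.09 in siDyskerin (adjusted p = 0.037) and 0.39 ± 0.09 in siGAR1 (adjusted p = 0.016). Between the knockdowns the difference was -0.70 ± 0.09, with an adjusted p of 2.5e-04. SRRM1 in siDyskerin passed against siControl once siGAR1 replicate 3 was left out of the fit, at -0.32 with an adjusted p of 0.0073. Its calls against siControl lay near the threshold: they stayed short of it in 14 of 18 alternatives in siDyskerin and in 12 of 18 in siGAR1, where SRRM1 passed with DESeq2 (adjusted p = 0.0012) and with no filter on low counts (adjusted p = 8.1e-05), among others.

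SRRM2, the speckle core protein that served the study as its speckle marker, did not follow the other 2. It had 27629, 21733 and 25404 normalized reads in siDyskerin and 28679, 23074 and 29270 in siGAR1, against 24943, 23778 and 27025 in siControl. The groups overlapped, and the log2 fold change was -0.02 ± 0.10 in siDyskerin (adjusted p = 0.94) and 0.10 ± 0.10 in siGAR1 (adjusted p = 0.60), both against siControl.

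**Figure D2:**
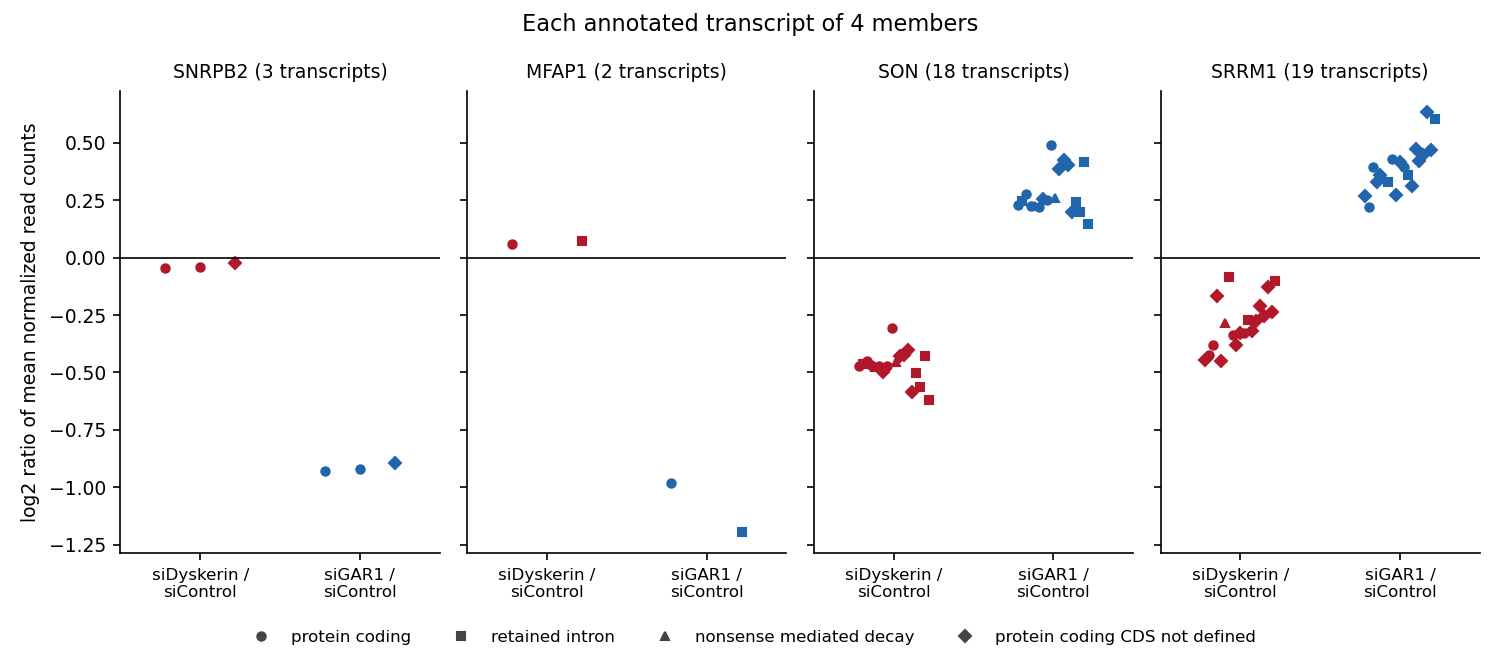
Log2 ratio of mean normalized read counts of each knockdown to siControl (vertical axis) for every transcript with at least 50 normalized reads in siControl, for SNRPB2, MFAP1, SON and SRRM1, with symbols for the annotated transcript type. All transcripts of SNRPB2 and MFAP1 lie below 0 in siGAR1, and all 18 transcripts of SON and 19 of SRRM1 lie below 0 in siDyskerin and above 0 in siGAR1.

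The transcripts of the speckle genes moved as their genes did. Of the 20 transcripts of SON, 18 had at least 50 normalized reads in siControl, and their log2 ratios ran from -0.62 to -0.31 in siDyskerin and from 0.15 to 0.49 in siGAR1, both to siControl. For SRRM1, 19 of 22 transcripts were at that level, with ratios from -0.45 to -0.08 in siDyskerin and from 0.22 to 0.64 in siGAR1. SRRM2 had 23 such transcripts, of which 14 lay below 0 and 9 above 0 in siDyskerin, and 8 below and 15 above in siGAR1. Many of these transcripts share reads.

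The tri-snRNP proteins held the remaining members that passed. PRPF4 and PRPF3 form a subcomplex on the U4/U6 snRNAs. PRPF4 had 1801, 1901 and 1747 normalized reads in siDyskerin and 2660, 2436 and 2637 in siGAR1, against 2271, 2294 and 2115 in siControl. The 3 groups did not overlap. Its log2 fold change was -0.29 ± 0.07 in siDyskerin against siControl (adjusted p = 0.014), 0.21 ± 0.07 in siGAR1 against siControl (adjusted p = 0.084) and -0.50 ± 0.07 in siDyskerin against siGAR1, which passed with an adjusted p of 5.0e-04.

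PRPF3 had 3700, 3822 and 3763 normalized reads in siDyskerin and 5036, 4785 and 4329 in siGAR1, against 3981, 3839 and 3824 in siControl. The siGAR1 libraries were above all others, and siDyskerin lay just below siControl. The difference was -0.33 ± 0.07 in siDyskerin against siGAR1 with an adjusted p of 0.0067, and 0.28 ± 0.07 in siGAR1 against siControl with an adjusted p of 0.020. The call between the knockdowns was the least stable of the 6: it was lost without any one of 7 of the 9 libraries, with adjusted p values of 0.013 to 0.041, and stayed without siControl replicate 1 or siGAR1 replicate 3.

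**Figure D3:**
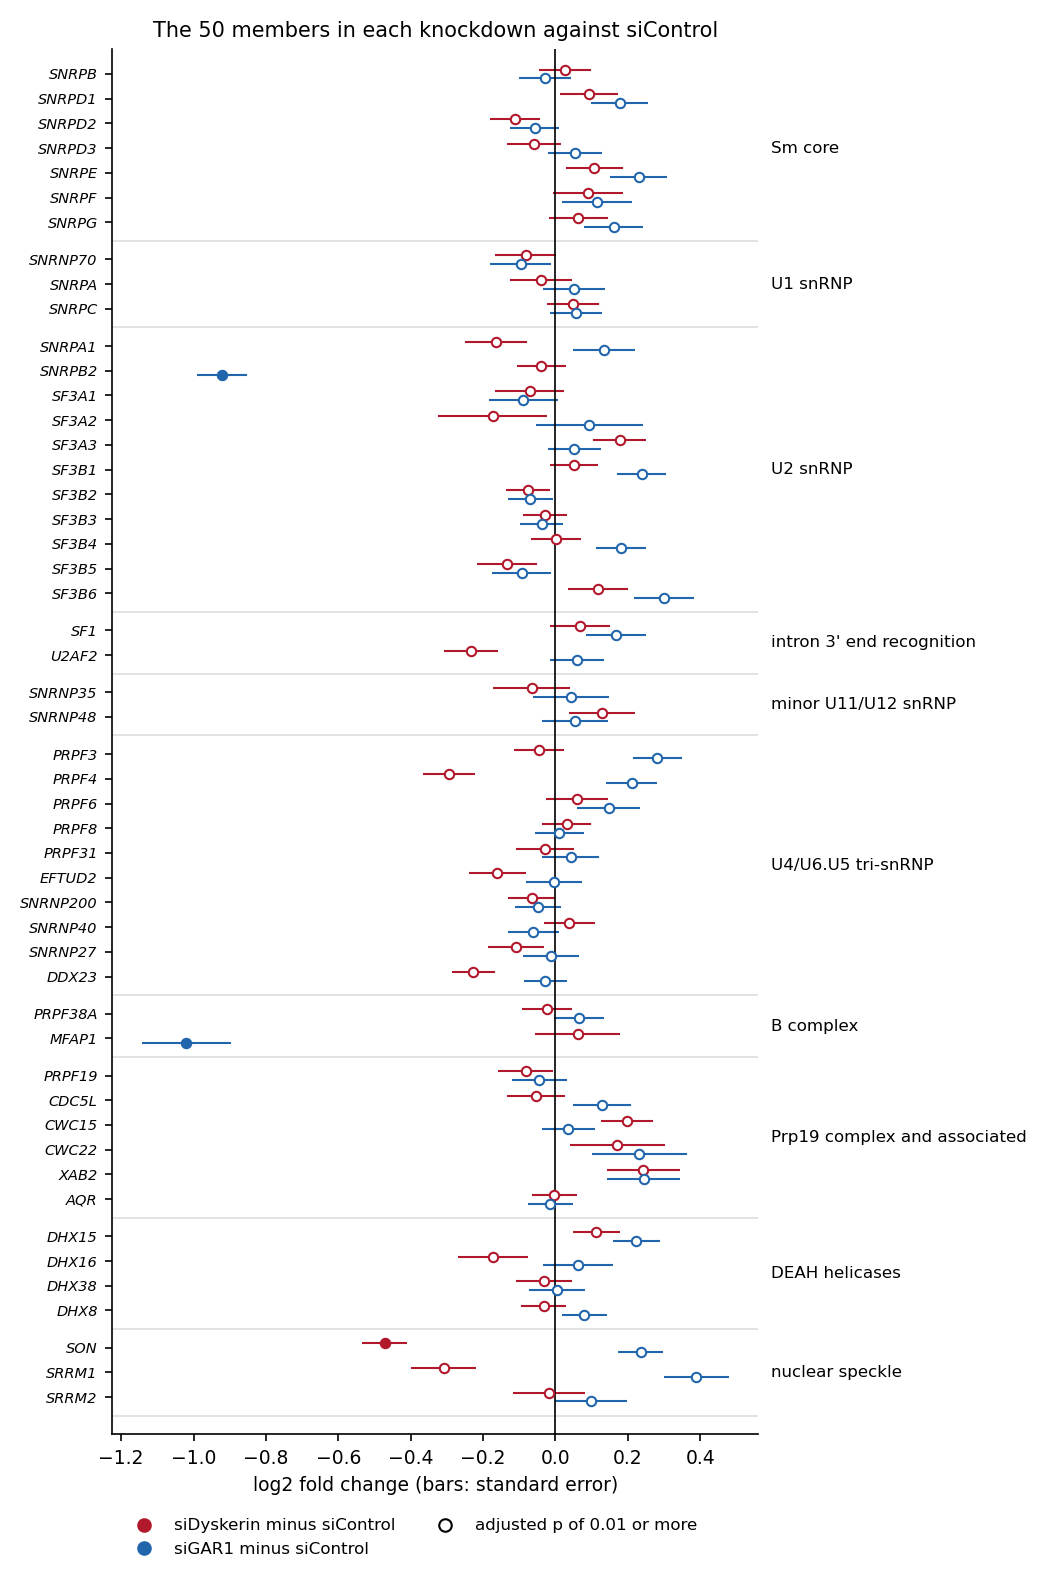
Log2 fold change (horizontal axis, with bars of 1 SE) of each of the 50 members in siDyskerin and in siGAR1 against siControl, grouped by role, with filled points where the adjusted p was under 0.01. Most members lie between -0.3 and 0.3 in both, and the filled points are SON in siDyskerin and SNRPB2 and MFAP1 in siGAR1.

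The other 8 tri-snRNP proteins passed in no comparison. With DESeq2, 999 of the 18444 genes tested passed lower in siDyskerin against siControl, and 799 lower in siDyskerin than in siGAR1. Of the 10 tri-snRNP proteins, 2 passed with it in siDyskerin against siControl, both lower, and 3 between the knockdowns, all lower in siDyskerin. The lowest in siDyskerin against siControl, after PRPF4, was DDX23, the helicase that prepares the tri-snRNP for activation, with 9070, 9247 and 8794 normalized reads in siDyskerin, 10368, 10737 and 10016 in siGAR1 and 10880, 10637 and 10207 in siControl. It lay below both other groups in every siDyskerin library, but its log2 fold change of -0.23 ± 0.06 missed the threshold (adjusted p = 0.020). PRPF8, the large protein at the catalytic core, had 32116, 29980 and 28313 normalized reads in siDyskerin and 29991, 28028 and 31123 in siGAR1, against 31628, 27713 and 29153 in siControl, with log2 fold changes of 0.03 ± 0.07 and 0.01 ± 0.07 for siDyskerin and siGAR1. The RNA helicase SNRNP200, which unwinds U4 from U6, and the GTPase EFTUD2 lay at -0.07 ± 0.06 and -0.16 ± 0.08 in siDyskerin, and at -0.05 ± 0.06 and 0.00 ± 0.08 in siGAR1. Over the 10 proteins the median was -0.06 in siDyskerin and 0.00 in siGAR1, with a range of -0.29 to 0.06 and of -0.06 to 0.28.

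Of the 11 U2 snRNP proteins only SNRPB2 passed. SF3B1, which holds the branch point helix and is the target of splicing inhibitors such as pladienolide B, had 15104, 15812 and 15590 normalized reads in siDyskerin and 18419, 17773 and 16718 in siGAR1, against 13853, 16178 and 14845 in siControl. Its siGAR1 libraries were above all the others, but the log2 fold change of 0.24 ± 0.07 did not pass (adjusted p = 0.040), and siDyskerin was at 0.05 ± 0.07 (adjusted p = 0.70). The highest of the group in siGAR1 was SF3B6, the SF3b protein next to the branch point, at 0.30 ± 0.08 (adjusted p = 0.038). In siDyskerin the highest was SF3A3 at 0.18 ± 0.07 and the lowest SF3A2 at -0.17 ± 0.15, both with adjusted p values above 0.1. SF3B2, SF3B3 and SF3A1 stayed within 0.1 of siControl in both knockdowns. The median of the 11 was -0.04 in siDyskerin and 0.05 in siGAR1.

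No Sm core protein passed. Their log2 fold changes against siControl ran from -0.11 for SNRPD2 to 0.11 for SNRPE in siDyskerin, and from -0.06 for SNRPD2 to 0.23 for SNRPE in siGAR1, where 5 of the 7 lay above 0 in each. SNRPE had 3721, 4536 and 4171 normalized reads in siDyskerin and 4677, 4668 and 4184 in siGAR1, against 3794, 3922 and 3823 in siControl, and its siGAR1 libraries were above siControl without overlap (adjusted p = 0.086). Several of these short genes have many pseudogenes, 10 for SNRPE and 20 for SNRPG, which held 1.12% and 0.857% as many reads as their genes. The 3 U1 snRNP proteins ranged from -0.08 for SNRNP70 to 0.05 for SNRPC in siDyskerin, and from -0.10 for SNRNP70 to 0.06 for SNRPC in siGAR1.

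U2AF2, the large subunit of the factor that binds the polypyrimidine tract, stood at -0.23 ± 0.08 in siDyskerin against siControl (adjusted p = 0.057) and at -0.29 ± 0.08 against siGAR1 (adjusted p = 0.022). SF1, which binds the branch point before the U2 snRNP does, was at 0.07 ± 0.08 in siDyskerin and 0.17 ± 0.08 in siGAR1. With DESeq2, 1 of these 2 proteins passed between the knockdowns, lower in siDyskerin, where 799 of the 18444 genes tested were lower. The minor spliceosome proteins SNRNP35 and SNRNP48, which serve the rare U12-type introns, lay at -0.07 ± 0.11 and 0.13 ± 0.09 in siDyskerin and at 0.04 ± 0.11 and 0.05 ± 0.09 in siGAR1. Among the Prp19 complex and its associates, XAB2 was the highest in both knockdowns at 0.24 ± 0.10 each, and its adjusted p values were 0.13 in siDyskerin and 0.15 in siGAR1. The lowest was PRPF19, the ubiquitin ligase that gives the complex its name, at -0.08 ± 0.08 in siDyskerin and -0.04 ± 0.08 in siGAR1. Of the DEAH-box proteins, DHX15, which takes the spent spliceosome apart, was the highest at 0.11 ± 0.06 in siDyskerin and 0.22 ± 0.06 in siGAR1 (adjusted p = 0.29 and 0.045). The lowest were DHX16 at -0.17 ± 0.10 in siDyskerin and DHX38 at 0.00 ± 0.08 in siGAR1.

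**Figure D4:**
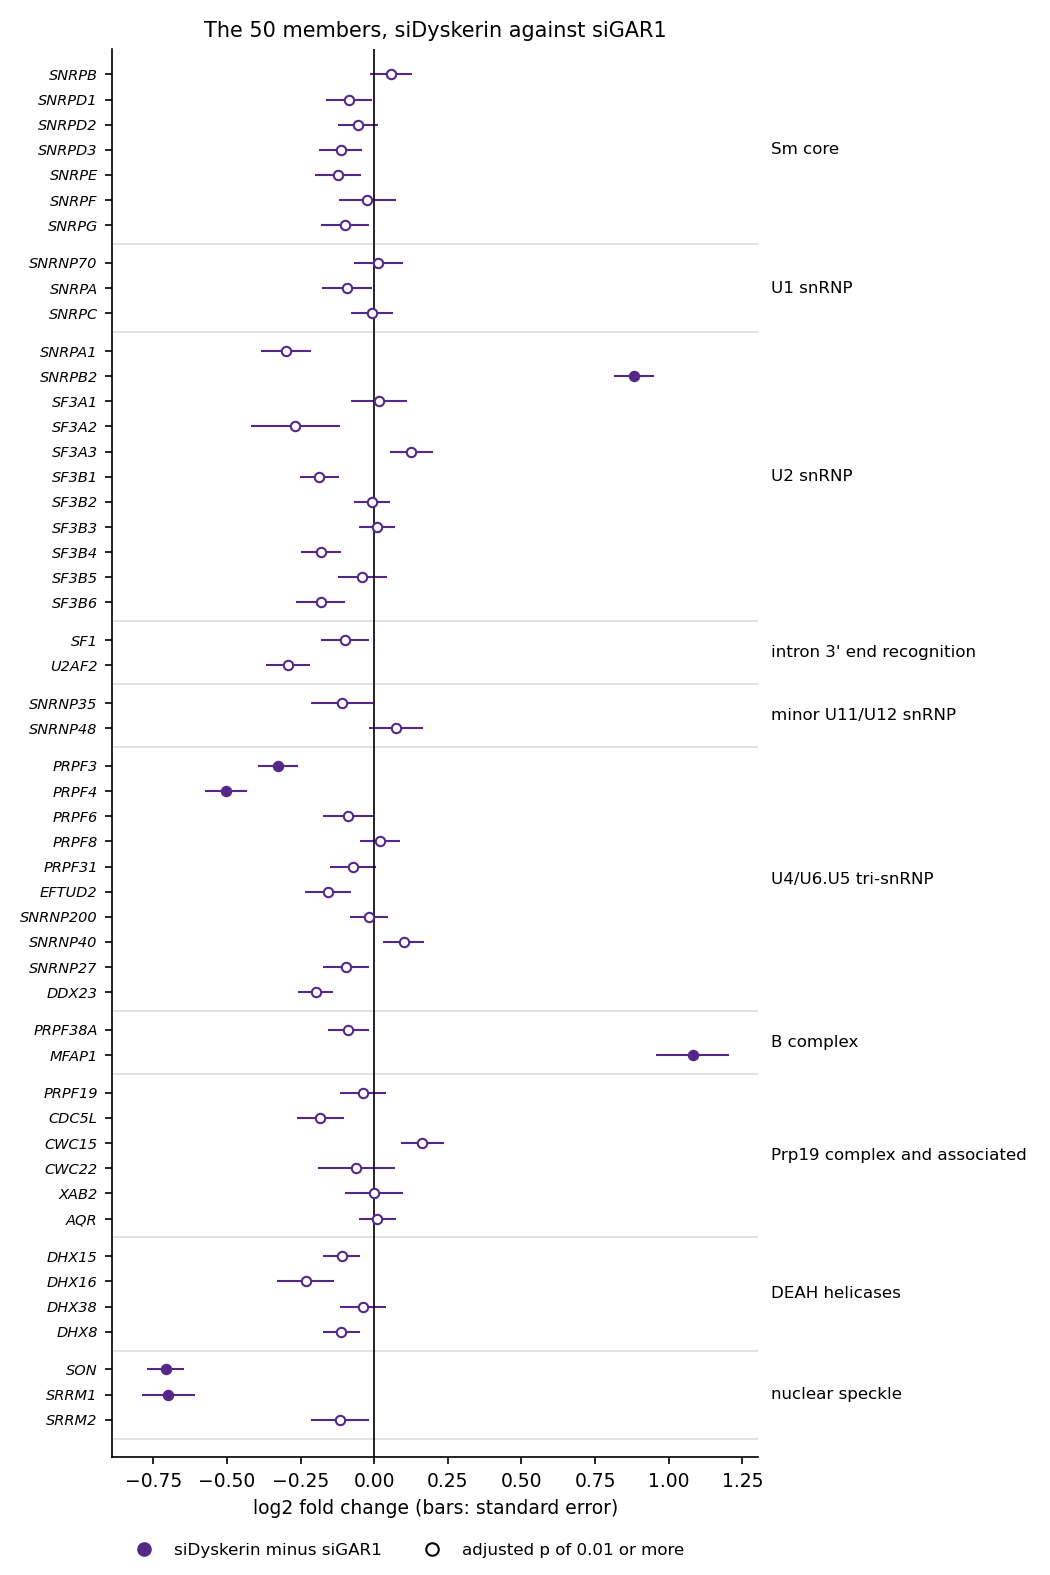
Log2 fold change (horizontal axis, with bars of 1 SE) of the 50 members in siDyskerin against siGAR1, grouped by role, with filled points where the adjusted p was under 0.01. SNRPB2 and MFAP1 stand out to the right, and SON, SRRM1, PRPF4 and PRPF3 to the left.

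Taking the members as a list, 20 lay above 0 and 30 below in siDyskerin against siControl, with a median of -0.03, where the median of all genes tested was 0.00. In siGAR1 against siControl 34 lay above 0 and 16 below, with a median of 0.06, against 0.01 for all genes. In siDyskerin against siGAR1 12 lay above 0 and 38 below, with a median of -0.09, against 0.00 for all genes. At an unadjusted p under 0.05, siDyskerin against siControl had 3 members higher and 5 lower, siGAR1 against siControl had 11 higher and 2 lower, and siDyskerin against siGAR1 had 3 higher and 12 lower. Of all 18444 genes tested, 2404 were higher and 2409 lower at that level in siDyskerin against siControl. In siGAR1 against siControl 2185 were higher and 2246 lower, and in siDyskerin against siGAR1 2424 were higher and 2283 lower. The members together held 0.631% to 0.657% of gene reads in siDyskerin, 0.682% to 0.713% in siGAR1 and 0.659% to 0.684% in siControl. Because the list was made with earlier results of these data known, these counts and medians only describe it.

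Per length, the members covered a wide range of levels. In TPM of the protein-coding transcript with the most reads, the highest in siControl were SNRPG at 104 ± 3.64, SNRPD2 at 88.0 ± 2.06, SNRPC at 77.9 ± 4.01 and SF3B6 at 73.7 ± 1.75. The lowest were SNRNP35 at 1.21 ± 0.0828, SNRNP48 at 1.77 ± 0.135 and SF3A2 at 1.78 ± 0.297 TPM (SD, n = 3), so that the highest was 85.8-fold above the lowest. The order at the top depended on the transcript: as the mean over a gene's protein-coding transcripts SNRPD2 was first at 88.4 TPM, followed by SF3B6 at 73.7, SNRPC at 66.4 and SNRPG at 65.4, SNRPD1 stood at 31.8 TPM in place of 10.6, and the span was 62.6-fold. The 2 minor spliceosome proteins were among the 3 lowest on both measures. Medians by role in siControl were 41.6 TPM for the Sm core, 25.4 for U1, 12.9 for the tri-snRNP, 12.3 for U2, 10.7 for the speckle proteins and 1.49 for the minor snRNP. Of the 49 pairs of neighbours in this order, 31 overlapped between their siControl libraries.

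**Figure D5:**
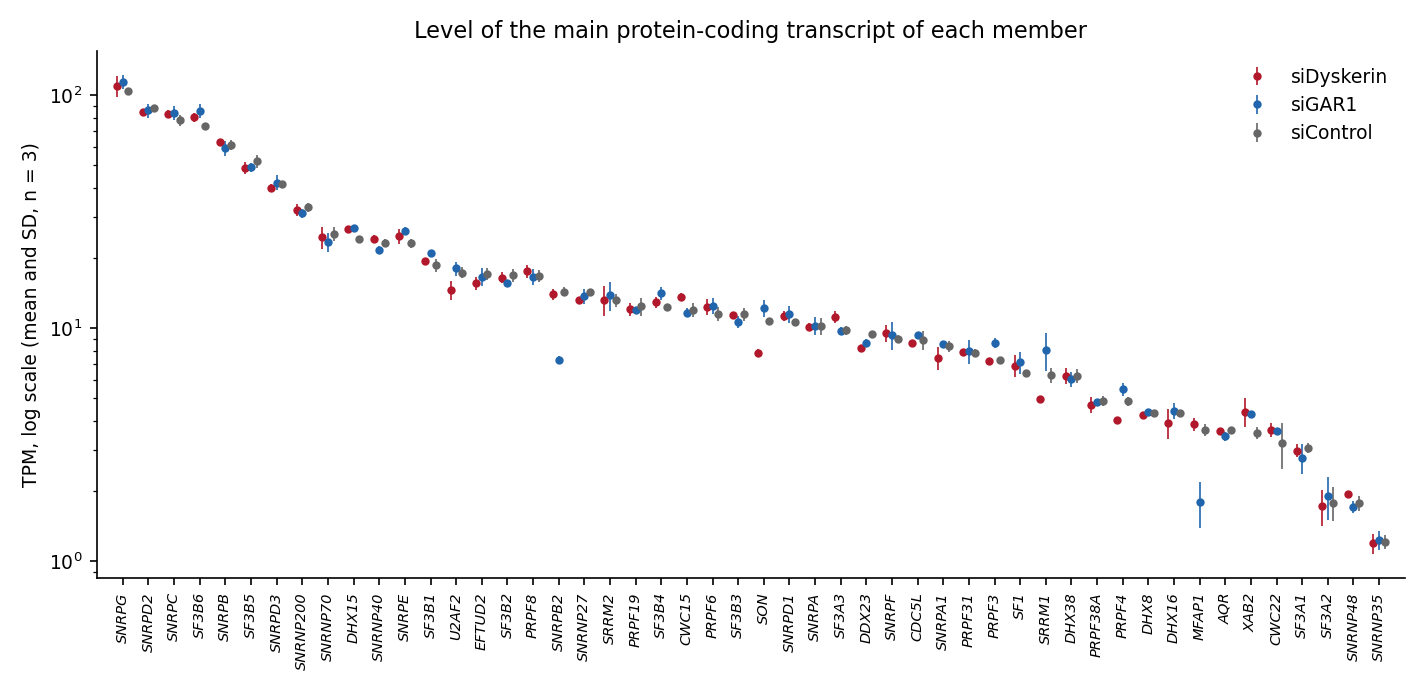
TPM (vertical axis, log scale) of the main protein-coding transcript of each of the 50 members, ordered by siControl, with the mean and SD of 3 libraries per group. By this transcript SNRPG is the highest and SNRNP35 the lowest, and the groups separate visibly at SNRPB2, SON, SRRM1 and MFAP1.

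On this scale SNRPB2 had 14.0 ± 0.735 TPM in siDyskerin, 7.32 ± 0.236 in siGAR1 and 14.3 ± 0.617 in siControl. MFAP1, among the 8 lowest members, had 3.86 ± 0.241 TPM in siDyskerin, 1.79 ± 0.398 in siGAR1 and 3.66 ± 0.227 in siControl. SON had 7.84 ± 0.290 TPM in siDyskerin, 12.2 ± 1.01 in siGAR1 and 10.7 ± 0.240 in siControl.

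The balance of transcripts within the members was also compared. Transcript usage could be tested, with edgeR's diffSpliceDGE and its Simes p values, for 47 of the 50, and none passed in any comparison. By this test 0.174% of 12644 genes passed in siDyskerin against siControl, 0.166% in siGAR1 against siControl and 0.206% in siDyskerin against siGAR1. No member passed with its gene-level F-test either, for which the share of all genes was not counted. At an unadjusted Simes p under 0.05 there were 0, 0 and 1 members in these comparisons. That 1 was SF3B2, with a Simes p of 0.023, where the retained-intron transcript SF3B2-205 was lower relative to the gene's other transcripts, by 0.98 on the log2 scale. The smallest Simes p in siDyskerin against siControl was 0.35, for PRPF38A, and in siGAR1 against siControl 0.081, for DHX8, with the protein-coding DHX8-204 at -0.48 relative to the others. A read is counted in every transcript of its gene that it is compatible with, so the transcripts compared share reads, which limits the usage test. Shares by transcript type are of counts summed over transcripts, and depend on how many transcripts of each type are annotated. Retained-intron transcripts, 145 of the members' 424, held 17.5 ± 0.259% of these counts in siDyskerin, 17.1 ± 0.210% in siGAR1 and 17.4 ± 0.197% in siControl (SD, n = 3 each). Transcripts subject to nonsense-mediated decay held 6.60, 6.40 and 6.42% in siDyskerin and 6.91, 6.88 and 6.85% in siGAR1, against 6.82, 6.85 and 6.91% in siControl, so that the siDyskerin libraries lay below the 6 others. This share moved with the level of SON: without SON it was 5.73, 5.52 and 5.53% in siDyskerin and 5.56, 5.67 and 5.49% in siGAR1, against 5.73, 5.68 and 5.71% in siControl, and the groups overlapped.

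Another 88 genes of splicing, in lists of 63 further spliceosome proteins, 16 snRNP assembly factors and 9 exon junction complex proteins, give the surroundings. All 88 were tested. For comparison, 3.32% of all genes tested were lower and 3.08% higher in siDyskerin against siControl. In siGAR1 against siControl 1.79% of all genes were lower and 1.63% higher. In siDyskerin against siControl 3 passed, all lower and all of the first list: CHERP, a U2-associated protein, at 57.0% of siControl (-0.81 ± 0.11, adjusted p = 2.0e-04), BUD13 of the RES complex at 70.0% (-0.51 ± 0.09, adjusted p = 0.0018) and LSM7, of the ring on U6 snRNA, at 72.5% (-0.46 ± 0.09, adjusted p = 0.0024). In siGAR1 against siControl 3 passed. PHF5A, an SF3b protein, was lower at 78.6% of siControl (-0.35 ± 0.07, adjusted p = 0.0096), CLNS1A, which loads Sm proteins for assembly, was lower at 75.0% (-0.41 ± 0.07, adjusted p = 0.0036), and the exon junction protein MAGOHB was higher at 135% (0.43 ± 0.08, adjusted p = 0.0054).

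Between the knockdowns 7 of the 88 passed, where 2.78% of all genes tested were lower in siDyskerin and 2.61% higher. CLNS1A was higher in siDyskerin than in siGAR1, at 0.45 ± 0.07. Lower in siDyskerin were CHERP at -0.85 ± 0.11, LSM7 at -0.57 ± 0.09, the tri-snRNP protein SART1 at -0.48 ± 0.09, the U6 recycling factor SART3 at -0.36 ± 0.07, the cyclophilin PPIL1 at -0.34 ± 0.07 and PRMT5, the enzyme that methylates Sm proteins, at -0.28 ± 0.06. The medians of the 88 were 0.01 in siDyskerin and 0.08 in siGAR1, both against siControl, and -0.06 between the knockdowns. Calls in these lists depended more on single libraries than those of the members: the 3 calls in siGAR1 became 0 without siControl replicate 3, 1 without siControl replicate 2, siDyskerin replicate 3 or siGAR1 replicate 1. The 3 in siDyskerin became 1 without siControl replicate 2 or siDyskerin replicate 2, and 5 without siGAR1 replicate 3, and the 7 between the knockdowns became 3 without siDyskerin replicate 2 or 3 or siGAR1 replicate 1 or 2.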

How the data were processed

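Nuclear RNA was depleted of rRNA, made into libraries with the Lexogen CORALL kit and sequenced in pairs. The authors trimmed the reads with Trim Galore 0.6.4, removed rRNA and tRNA with Bowtie2 2.4.1 and quantified transcripts with Salmon 1.2.0 against GENCODE 27 on GRCh38. The deposited tables hold estimated counts and TPM for 200401 transcripts per library. Of these, 196040 were matched by transcript identifier, without version, to 58425 genes of GENCODE 44; the reads on the others, 3.69% to 3.84% per library, were left out. Within a gene, a read was counted in every compatible transcript, which was not checked between genes. In 2453 pairs where 1 transcript lies within another of the same gene, the longer had no fewer reads in 99.9% to 100% per library. Gene sums therefore exceed the number of fragments and were compared only between groups. The expected counts, as deposited, were rounded to whole numbers, summed per gene and scaled by TMM (factors 0.982 to 1.018); normalized reads are at the mean effective library size.

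The 18444 genes kept by filterByExpr were tested with edgeR 4.0.16 (quasi-likelihood, robust, 9 libraries in 1 fit) in R 4.3.3, with an adjusted p threshold of 0.01. A log2 fold change of 1 was the second threshold. Transcript usage was tested with diffSpliceDGE on 104054 transcripts and Simes p values. DESeq2 1.42.0 was an alternative, with other counts, scalings, filters, a replicate block and each library left out. Scripts were tested on simulated data. Levels are the deposited TPM values. Promoters are from RefSeq. Biological replicates are stated, but not their culture dates, so p values measure the spread between these samples. The members and lists were chosen with earlier results of these data known. Named are members that passed, MFAP1, SRRM2, SF3B1 and SON, the extremes of each role group, for usage the member of smallest Simes p, and the genes of the further lists that passed; the rule set 4 of these per list and comparison, and PPIL1 goes beyond it. Shown with values besides are SNRPA1, PRPF38A, PRPF8, SNRNP200, EFTUD2, DDX23, SF3B2, SF3B3 and SF3A1, chosen after their values were seen.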

Additional observations from a re-analysis of the deposited data

How the results depend on the processing

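The calls of SNRPB2 and MFAP1 in siGAR1 against siControl, of SON in siDyskerin against siControl, and of SNRPB2, MFAP1, SON, SRRM1 and PRPF4 between the knockdowns held under all 18 alternatives. PRPF3 between the knockdowns was lost with length-scaled counts (adjusted p = 0.015) and with only the 2 groups in the fit (0.011), besides the libraries named above. The number of members passing in siDyskerin against siControl was 3 with DESeq2 and with DESeq2 on length-scaled counts, 2 with no filter on low counts, 4 with 1 transcript per gene and 2 with only the groups compared, and 1 to 2 with each library left out. In siGAR1 against siControl it was 5 with DESeq2 on either counts (SON, SRRM1 and PRPF3 higher besides the 2), 4 with 1 transcript per gene, and 2 to 4 with each library left out, the 4 being without siGAR1 replicate 3. Between the knockdowns it was 5 to 6 with each library left out. For the 88 further genes the number was, in siDyskerin against siControl, 8 with DESeq2, 9 with DESeq2 on length-scaled counts, 6 with 1 transcript per gene and 1 to 5 with each library left out. In siGAR1 against siControl it was 6 and 5 with these DESeq2 fits, 5 with no filter on low counts, 1 with length-scaled counts, 1 with only the 2 groups, and 0 to 3 with each library left out. Between the knockdowns it was 12 and 13 with DESeq2 and 3 to 9 with each library left out. The cause of these shifts was not tested. DESeq2 also called more genes in general. Of the 18444 genes tested, 930 were higher and 999 lower with it in siDyskerin against siControl. In siGAR1 against siControl 591 were higher and 771 lower, and in siDyskerin against siGAR1 968 were higher and 799 lower. For the other alternatives the share of all genes that passed was not counted. No member passed for transcript usage under any alternative.

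Log2 fold changes near 0 in siDyskerin against siControl changed sign with single libraries left out: the ranges were -0.0087 to 0.104 for SF3B1, -0.105 to 0.063 for SRRM2, -0.091 to 3.2e-04 for SNRPB2 and -0.0092 to 0.126 for MFAP1. The deviations of libraries of equal replicate number had correlations of -0.07 to 0.10 over 9 pairs, 1 above 0.1. Between libraries of different number they ran from -0.10 to 0.06. Correlations this small cannot tell whether the numbers pair the samples. With a replicate block 1, 3 and 7 members passed in the 3 comparisons, and 5 of the 88 further genes in siDyskerin against siControl. For the replicate block, too, the share of all genes that passed was not counted. The median level of the members in siControl was 11.10 TPM, and 11.01 TPM as the mean over protein-coding transcripts, while SNRPG moved to 65.4 from 103.9 TPM and SNRPD1 to 31.8 from 10.6 TPM. The transcript types without SON were computed after seeing the data. SF3A2, at 467 to 715 normalized reads, had the largest SE, 0.15.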
